A study of Homo sapiens with 12 samples.

Results

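The genes described here are regulators and known targets of the transcription factor p53, 36 genes of the 63677 in the count files. They were given as a list of names, with no rule on measured values but with earlier results of these data known. All 36 were found by Ensembl identifier. They comprise 4 genes of the p53 feedback loop, 7 of cell cycle arrest, 5 death receptors, 8 genes of apoptosis and survival, 4 of DNA repair, 3 of metabolism and 5 of growth and signaling. Genes of the BCL2 family are not in the list, and the gene of p53 itself was not analysed here.

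The nuclear lncRNA LINC01956 was knocked down in MDA-MB-468, SUM149PT and HCC38 cells, 3 lines of basal-like breast cancer. In the knock-down groups, cells were transfected at seeding with the locked nucleic acid (LNA) antisense oligonucleotides LNA1/2 against the lncRNA, at a final 50 nM. In the LNA NS groups, the same lines received a non-targeting LNA in the same way. Every group had its medium changed after 6 h and was collected at 24 h, and each of the 6 groups holds 2 libraries of poly-A selected, strand-specific RNA-seq, 12 in all. Whether paired libraries of a group are separate cultures is not stated, so the p-values rest on a spread between libraries that may be technical. A dish of cells was measured in bulk and counts were scaled to library size. A change of a gene within each cell and a change in the mix of cells therefore cannot be told apart. The cell lines are each an established tumor line, and all are known to carry mutated p53.

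In normal cells p53 is kept low by MDM2, a ubiquitin ligase that p53 itself induces. DNA damage and other stress release p53 from MDM2, and p53 then binds paired half-sites near its target genes. The products of these genes halt the cell cycle, start apoptosis, repair DNA or rebuild the feedback that ends the response. Mutations of p53 in basal-like tumors mostly fall in its DNA-binding part, and many of its targets are also driven by other factors.

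Gene counts ran between 32187835 and 56191152 per library, and libraries of a group differed by more than sampling noise, with a chi-square per degree of freedom of 17.6 to 31.4. The targeted lncRNA fell in every line, with a log2 fold change of -4.75, -4.41 and -3.09 for MDA-MB-468, SUM149PT and HCC38. Markers of basal cells (KRT5, KRT6A, KRT17, EGFR and FOXC1) summed to 4830 to 5221 CPM (counts scaled to the size of the library) in knock-down and 7929 to 8658 CPM in LNA NS libraries of MDA-MB-468, and to 3392 to 3515 CPM in knock-down and 4245 to 4366 CPM in LNA NS libraries of SUM149PT. In HCC38 their sum was 242.0 to 277.7 CPM in knock-down and 235.8 to 286.2 CPM in LNA NS libraries. The sums were thus lower with the knock-down in MDA-MB-468 and SUM149PT, but single markers moved both ways. In MDA-MB-468, KRT5 and EGFR fell (log2 fold change -0.39 and -0.99) while KRT6A and FOXC1 rose (0.77 and 0.77). In SUM149PT, KRT5, KRT17 and EGFR fell (-0.51, -0.44 and -0.68) and FOXC1 rose (0.64). In HCC38, KRT5 fell (-0.35) and KRT6A, KRT17 and FOXC1 rose (0.56, 1.22 and 0.62). Changes of KRT17 in MDA-MB-468 (-0.02), KRT6A in SUM149PT (-0.09) and EGFR in HCC38 (-0.10) were small. The part of these markers in the results that follow was not tested. Immune markers (PTPRC, CD3E and CD68) summed to at most 0.326 CPM in any library, while the endothelial gene CDH5 was at 6.38 to 6.97 CPM in knock-down and 1.70 to 2.31 CPM in LNA NS libraries of MDA-MB-468, at 2.08 to 2.23 CPM in knock-down and 0.241 to 0.423 CPM in LNA NS libraries of SUM149PT, and at most 0.0437 CPM in HCC38. The epithelial markers EPCAM and CDH1 summed to 634.1 to 704.6 CPM in knock-down and 485.9 to 512.4 CPM in LNA NS libraries of MDA-MB-468, to 744.6 to 799.7 CPM in knock-down and 702.2 to 750.8 CPM in LNA NS libraries of SUM149PT, and to 690.3 to 720.6 CPM in knock-down and 743.7 to 765.2 CPM in LNA NS libraries of HCC38. The part of these markers in the results was not tested either.

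Promoter sequences are shown for 4 targets because the genes carry the contrast described next: RAP2B and BTG2 rose in every line, AEN holds a full p53 site in its promoter and CDKN1A is the classical target. They are RefSeq sequences on GRCh38.p14, 250 bases before to 50 after the annotated start, written 5′ to 3′ on the strand of the gene. Capitals mark matches to the p53 half-site, a palindromic motif of 10 bases that reads the same on both strands, or in AEN to 2 half-sites side by side, with at most 2 mismatches and intact cores. The AEN window is chr15:88621090-88621389, that of RAP2B chr3:153161976-153162275, that of BTG2 chr1:203305269-203305568 and that of CDKN1A chr6:36678464-36678763, all on the plus strand.
AEN: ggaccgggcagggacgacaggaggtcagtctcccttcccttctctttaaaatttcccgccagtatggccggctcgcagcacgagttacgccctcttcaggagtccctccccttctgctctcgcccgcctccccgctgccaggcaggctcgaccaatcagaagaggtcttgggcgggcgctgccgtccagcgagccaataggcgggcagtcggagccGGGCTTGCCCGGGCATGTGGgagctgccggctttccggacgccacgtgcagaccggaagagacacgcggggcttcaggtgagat
RAP2B: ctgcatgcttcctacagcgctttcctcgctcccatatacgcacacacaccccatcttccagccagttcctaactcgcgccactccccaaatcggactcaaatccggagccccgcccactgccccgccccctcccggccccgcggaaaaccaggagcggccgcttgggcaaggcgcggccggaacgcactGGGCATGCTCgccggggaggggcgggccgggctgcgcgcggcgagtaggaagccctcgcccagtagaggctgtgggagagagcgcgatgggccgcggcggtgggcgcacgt
BTG2: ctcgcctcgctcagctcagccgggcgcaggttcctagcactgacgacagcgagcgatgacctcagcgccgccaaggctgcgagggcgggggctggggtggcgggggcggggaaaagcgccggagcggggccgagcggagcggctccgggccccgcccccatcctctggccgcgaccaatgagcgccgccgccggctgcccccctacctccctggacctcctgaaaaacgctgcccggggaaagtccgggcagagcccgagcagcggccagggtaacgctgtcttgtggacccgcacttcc
CDKN1A: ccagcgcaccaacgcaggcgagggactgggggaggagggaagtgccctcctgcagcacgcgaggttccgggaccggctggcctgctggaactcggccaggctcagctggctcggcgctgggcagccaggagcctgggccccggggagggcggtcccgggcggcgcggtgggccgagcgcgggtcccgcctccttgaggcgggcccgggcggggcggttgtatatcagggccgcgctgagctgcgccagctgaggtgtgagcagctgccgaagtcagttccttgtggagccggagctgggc

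In AEN, which encodes a nuclease of apoptosis, the match began at position -34 relative to the start and held 2 mismatches. In RAP2B, a gene of the RAS family of small GTPases, a single half-site began at position -61. BTG2 and CDKN1A had no match in these windows, which says only that the letters are not there. Of the 36 genes, 29 had a promoter in the table, and 4 of these, AEN, FDXR, PLK2 and RAP2B, held a half-site (13.8%, beside 6.63% of all 35116 promoters). A full site was found in AEN alone, 3.45% of these promoters beside 0.285% of all.

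The question of the first comparison was which p53 targets changed when the lncRNA was knocked down. A gene was called at an adjusted p under 0.1 in edgeR's quasi-likelihood test, adjusted by Benjamini-Hochberg over all 21325 genes tested, and log2 fold changes (log2FC) are given ± SE with 2 libraries a group. Of the 36 genes, 35 had enough counts to be tested. In MDA-MB-468, 19 of the 35 rose (54.3%, beside 24.9% of all genes tested) and 7 fell (20.0%, beside 25.7%). In SUM149PT, 17 rose (48.6%, beside 20.0%) and 4 fell (11.4%, beside 18.0%). In HCC38, 9 rose (25.7%, beside 15.5%) and 2 fell (5.71%, beside 18.4%). The median log2FC of the 35 genes was 0.35, 0.37 and 0.15 for MDA-MB-468, SUM149PT and HCC38, while all genes tested had 0.00, 0.03 and 0.01. Against protein-coding genes of at least 1 CPM, a background chosen after seeing the data, the share that rose was 30.5% for MDA-MB-468, 25.6% for SUM149PT and 18.6% for HCC38. Because the list was written with earlier results of these data known, its shares are a description and not an independent test.

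**Figure D1:**
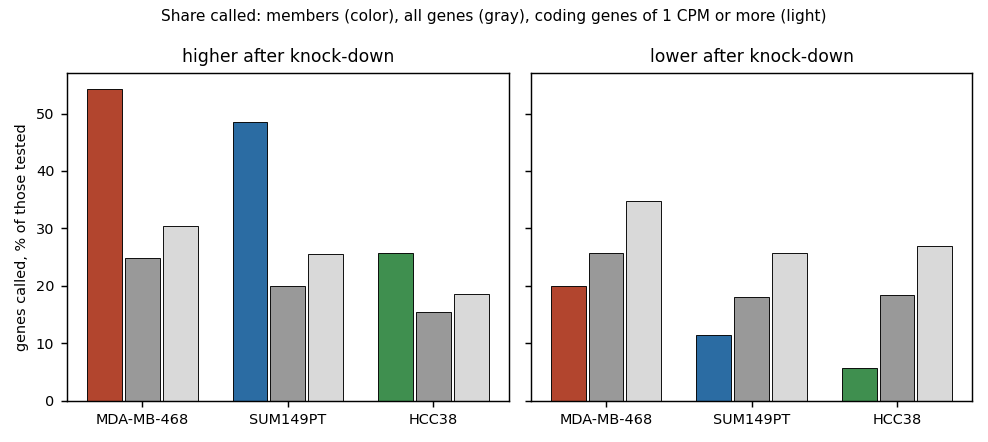
Share of genes called higher (left) and lower (right) after knock-down in each line, in percent of genes tested: the p53 list in color, all 21325 genes in gray and coding genes of at least 1 CPM in light gray. The p53 list stands above both backgrounds for rises, 54.3%, 48.6% and 25.7% from MDA-MB-468 to HCC38, and below both for falls.

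On average over the lines, 24 of the 35 genes rose (68.6%, beside 28.4% of all genes tested), 7 fell (20.0%, beside 26.5%) and 4 did not pass the test. Of the 35, 6 rose in all 3 lines (17.1%, beside 6.6% of all genes tested): PPM1D, BTG2, PERP, XPC, RAP2B and PTP4A1. None fell in all 3, where 8.74% of all genes tested did. Leaving out any 1 library ended no call of BTG2 or RAP2B in any line, while the other 4 each lost a call in at least 1 line. Calls were least firm in HCC38, where most were lost without some library, against a smaller part in SUM149PT and MDA-MB-468. The share of calls lost over all genes tested was not counted, so this cannot be read as a trait of the list. Those lost were FAS, GADD45A, GDF15, PERP, POLH, PPM1D and XPC in HCC38, APAF1, PLK3, PTP4A1, SESN1, SFN, TNFRSF10B, TP53INP1 and XPC in SUM149PT, and FDXR, GDF15, PPM1D, TIGAR, TP53I3 and TRIAP1 in MDA-MB-468. In HCC38 the genes whose calls held were BTG2, PHLDA3, RAP2B and PTP4A1.

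**Figure D2:**
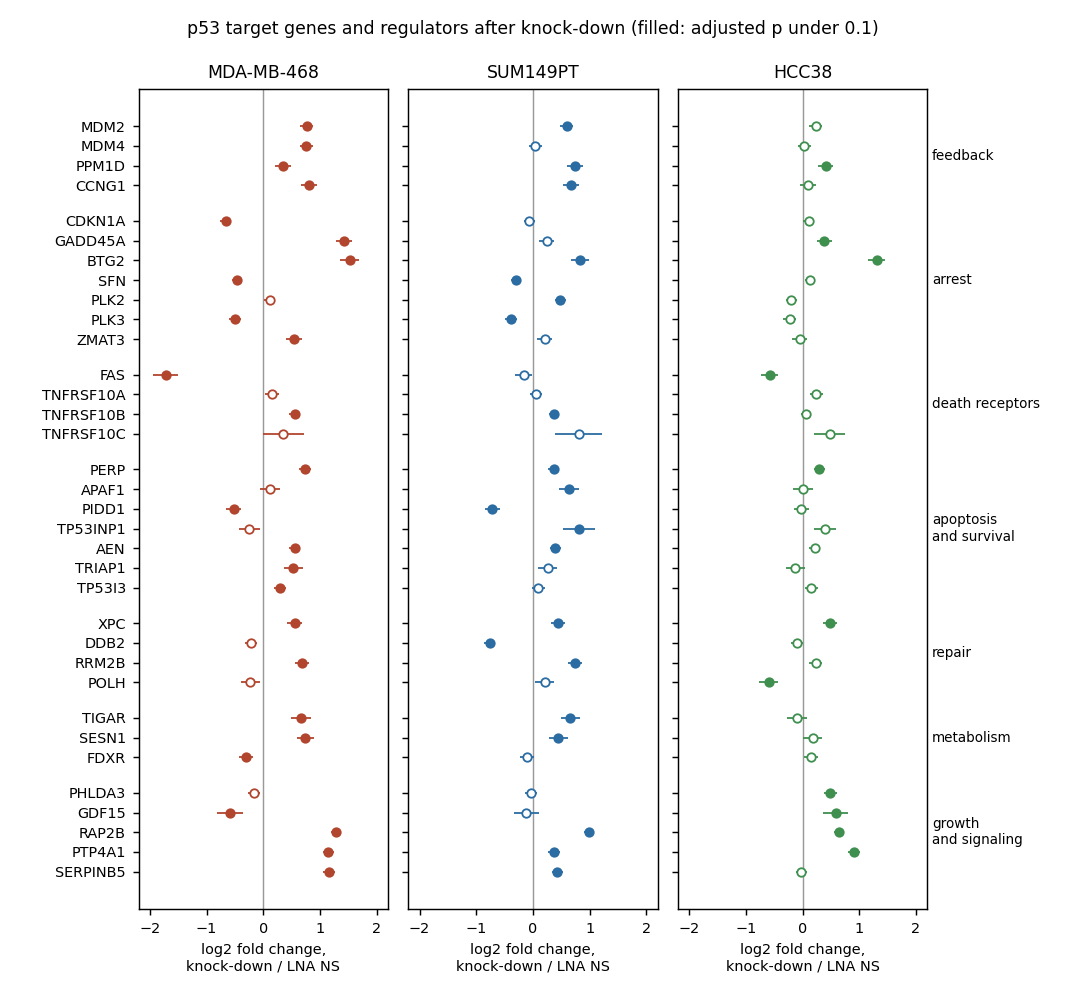
Log2 fold change of knock-down over LNA NS for 34 genes of the p53 list, by role, in each line; points are the estimates, bars the SE, and filled points passed an adjusted p of 0.1 (EDA2R and SPATA18, near 0 counts, are not drawn). Most filled points lie right of 0, the largest for BTG2 and GADD45A in MDA-MB-468 and BTG2 in HCC38, and FAS lies farthest left at -1.73.

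The feedback genes rose in MDA-MB-468, where all 4 passed the test (beside 24.9% of all genes tested that rose), against 3 in SUM149PT (beside 20.0%) and 1 in HCC38 (beside 15.5%). MDM2, the ubiquitin ligase that marks p53 for degradation, was at 61.6 and 66.2 CPM in knock-down and 37.6 and 37.7 CPM in LNA NS libraries of MDA-MB-468, a log2FC of 0.76 ± 0.11 (adjusted p = 4.4e-05). It was at 44.4 and 39.8 CPM in knock-down and 28.6 and 27.1 CPM in LNA NS libraries of SUM149PT, a log2FC of 0.60 ± 0.11 (adjusted p = 0.00092). In HCC38 it was at 47.3 and 37.7 CPM in knock-down and 35.7 and 36.95 CPM in LNA NS libraries, a log2FC of 0.23 ± 0.11 (adjusted p = 0.15). The groups did not overlap in any line, but 1 of the HCC38 knock-down libraries lay just above the LNA NS pair. Without that library the MDM2 log2FC in HCC38 was 0.38, the highest of the fits without 1 library. The lowest of these fits gave 0.03, so the size of this change hangs on single libraries. MDM2 is overlapped on the opposite strand by a gene itself named CPM, which holds 9513 counts against 21334 for MDM2. Which strand the counting kept is not stated.

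MDM4, the MDM2 relative that masks the activation domain of p53, rose in MDA-MB-468 only (log2FC 0.75 ± 0.11, adjusted p = 4.6e-05), beside 0.04 in SUM149PT and 0.03 in HCC38, and its response differed between lines (interaction adjusted p = 0.0049). PPM1D, the phosphatase that switches off damage signaling, rose in all lines, with log2FC of 0.34 ± 0.14 (MDA-MB-468), 0.75 ± 0.14 (SUM149PT) and 0.41 ± 0.14 (HCC38). Its MDA-MB-468 call did not hold in 3 of the 12 leave-one-out fits, nor its HCC38 call in 2. CCNG1, cyclin G1, which recruits a phosphatase to MDM2, rose in MDA-MB-468 (log2FC 0.81 ± 0.14) and SUM149PT (0.67 ± 0.14), with 0.09 ± 0.14 in HCC38.

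The arrest genes split. Of the 7, 3 rose and 3 fell in MDA-MB-468 (beside 24.9% and 25.7% of all genes tested), 2 rose and 2 fell in SUM149PT (beside 20.0% and 18.0%), and 2 rose and 0 fell in HCC38 (beside 15.5% and 18.4%). CDKN1A encodes p21, the inhibitor of cyclin-dependent kinases and the best known p53 target. It was at 28.0 and 30.8 CPM in knock-down and 45.8 and 47.2 CPM in LNA NS libraries of MDA-MB-468, a log2FC of -0.66 ± 0.10 (adjusted p = 4.3e-05). In SUM149PT it was at 158.0 and 169.7 CPM in knock-down and 165.0 and 177.0 CPM in LNA NS libraries, a log2FC of -0.06 ± 0.09 (adjusted p = 0.68). HCC38 libraries held 38.5 and 44.05 CPM in knock-down and 37.8 and 38.9 CPM in LNA NS libraries, a log2FC of 0.11 ± 0.10 (adjusted p = 0.47). So CDKN1A mRNA was lower in MDA-MB-468 with no overlap of the groups, whereas the groups overlapped in SUM149PT and in HCC38. Groups of 2 libraries can also separate without a call, as for MDM2 in HCC38 above. Lack of overlap is therefore a description only, for this and the other genes, and its share over all genes is not given. The test of a difference between lines gave an adjusted p of 0.0023.

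GADD45A, a stress protein of the checkpoint before mitosis, moved the other way in the same line. It was at 325.3 and 439.4 CPM in knock-down and 134.1 and 151.3 CPM in LNA NS libraries of MDA-MB-468, a log2FC of 1.42 ± 0.14 or 2.68-fold (adjusted p = 5e-07). In SUM149PT it was at 81.5 and 89.3 CPM in knock-down and 64.9 and 79.8 CPM in LNA NS libraries (log2FC 0.24 ± 0.14, adjusted p = 0.2). HCC38 libraries held 42.2 and 46.1 CPM in knock-down and 35.5 and 32.1 CPM in LNA NS libraries (log2FC 0.38 ± 0.14, adjusted p = 0.049). The knock-down libraries lay above the LNA NS libraries in every line, by most in MDA-MB-468 (interaction adjusted p = 0.00085). The HCC38 call was lost without LNA NS replicate 2 (log2FC 0.31) and without knock-down replicate 2 (0.32).

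BTG2, an antiproliferative cofactor of mRNA deadenylation, had the largest average change of the list, 2.33-fold. It was at 5.25 and 5.27 CPM in knock-down and 1.56 and 2.10 CPM in LNA NS libraries of MDA-MB-468 (log2FC 1.52 ± 0.17, adjusted p = 3.7e-06). It was at 7.88 and 7.72 CPM in knock-down and 4.61 and 4.14 CPM in LNA NS libraries of SUM149PT (log2FC 0.83 ± 0.16, adjusted p = 0.00083). In HCC38 it was at 15.5 and 15.7 CPM in knock-down and 6.16 and 6.45 CPM in LNA NS libraries (log2FC 1.31 ± 0.15, adjusted p = 1e-05). Every knock-down library lay above every LNA NS library of its line, and the order of the lines was kept, with HCC38 highest in both conditions. The interaction had an adjusted p of 0.089.

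SFN, 14-3-3 sigma, which holds mitotic kinases in the cytoplasm, fell in MDA-MB-468 (log2FC -0.46 ± 0.08) and SUM149PT (-0.30 ± 0.08), with 0.13 ± 0.08 in HCC38 (interaction adjusted p = 0.0057). PLK3, a stress-activated polo-like kinase, fell in MDA-MB-468 (log2FC -0.50 ± 0.11) and SUM149PT (-0.38 ± 0.11), with -0.23 ± 0.11 in HCC38, and a difference between lines was not detected (adjusted p = 0.4). Its relative PLK2 rose in SUM149PT only (log2FC 0.48 ± 0.10), beside 0.11 in MDA-MB-468 and -0.20 in HCC38 (interaction adjusted p = 0.0062). ZMAT3, an RNA-binding protein of splicing and mRNA stability, rose in MDA-MB-468 (log2FC 0.54 ± 0.14), beside 0.21 in SUM149PT and -0.05 in HCC38 (interaction adjusted p = 0.08).

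**Figure D3:**
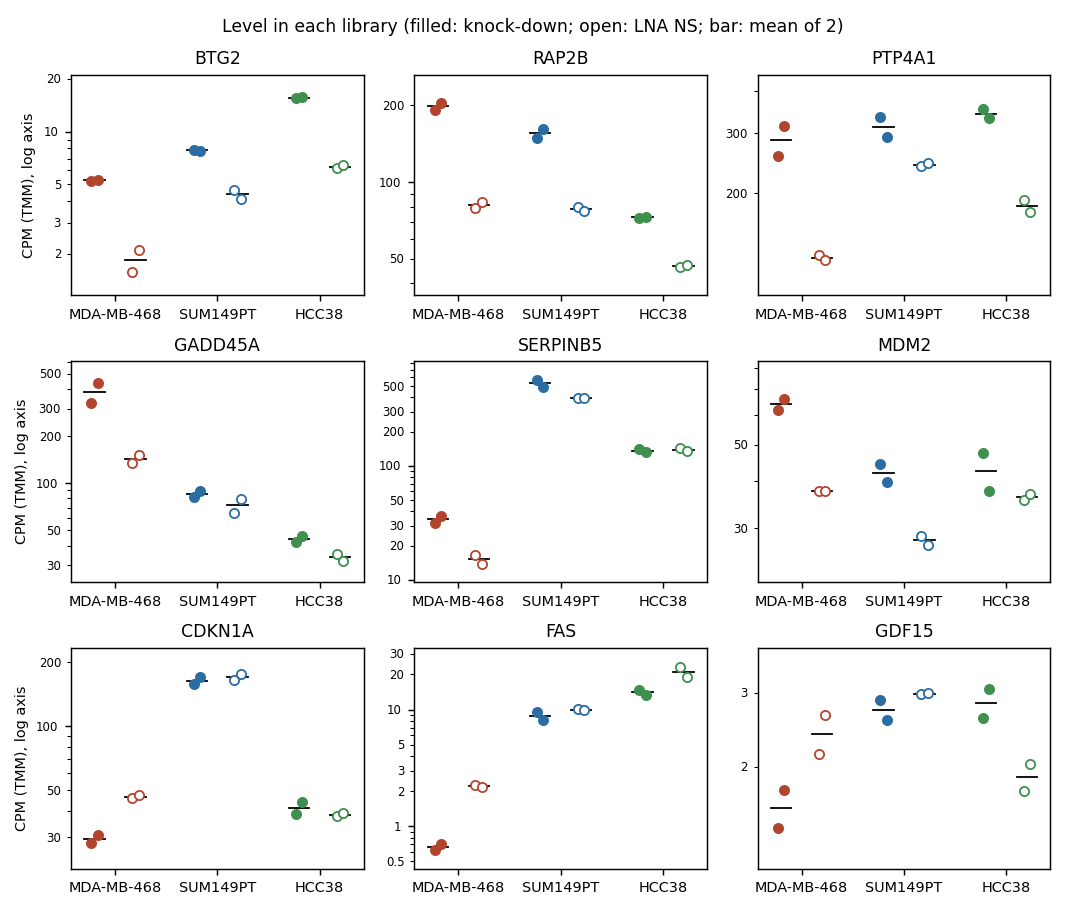
CPM on a log axis in each of the 12 libraries for 9 genes of the p53 list, knock-down libraries filled and left of the open LNA NS libraries of the same line, with a bar at the mean of 2. BTG2, RAP2B and PTP4A1 are higher in every knock-down library of every line, CDKN1A and FAS are lower in MDA-MB-468 knock-down libraries, and GDF15 is lower in MDA-MB-468 and higher in HCC38.

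Among the death receptors, the change with the largest size was a fall. FAS, the receptor of FAS ligand, was at 0.621 and 0.706 CPM in knock-down and 2.25 and 2.15 CPM in LNA NS libraries of MDA-MB-468, a log2FC of -1.73 ± 0.22 (adjusted p = 1.2e-05). In SUM149PT it was at 9.61 and 8.05 CPM in knock-down and 10.0 and 9.84 CPM in LNA NS libraries (log2FC -0.16 ± 0.15, adjusted p = 0.45). The HCC38 values were 14.8 and 13.4 CPM in knock-down and 23.3 and 18.9 CPM in LNA NS libraries (log2FC -0.58 ± 0.14, adjusted p = 0.0063). FAS was lower in every knock-down library than in every LNA NS library of its line, and the size differed between lines (interaction adjusted p = 0.0025). Its HCC38 call was lost without LNA NS replicate 1 (log2FC -0.43). FAS is overlapped on the opposite strand by ACTA2, which holds 2711 counts over the 12 libraries against 4973 for FAS. The libraries mark strand, but which strand the counting kept is not stated.

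The receptors of the death ligand TRAIL did not fall in any line. TNFRSF10B, a TRAIL receptor with a death domain, rose in MDA-MB-468 (log2FC 0.55 ± 0.09, adjusted p = 0.00015) and SUM149PT (0.37 ± 0.09, adjusted p = 0.006), with 0.07 ± 0.09 in HCC38 (interaction adjusted p = 0.033). TNFRSF10A, the other TRAIL receptor with a death domain, was called in no line, with log2FC of 0.15, 0.05 and 0.24 in MDA-MB-468, SUM149PT and HCC38. TNFRSF10C, a decoy receptor without a death domain, was called in no line at 14 to 358 counts a library. Both rose on average over the lines, by a log2FC of 0.15 for TNFRSF10A and 0.55 for TNFRSF10C. These calls on the average were lost in some fits without 1 library. The TNFRSF10 genes are close paralogs, and reads they share could be split or dropped by the counting. EDA2R, a receptor of ectodysplasin, had 0 counts in all 4 MDA-MB-468 libraries, where 0 counts allow up to 0.0818 CPM, and between 0 and 10 counts in the other libraries, and it was not tested.

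Among the 8 genes of apoptosis and survival, 4 rose and 1 fell in MDA-MB-468 (beside 24.9% and 25.7% of all genes tested), 4 rose and 1 fell in SUM149PT (beside 20.0% and 18.0%), and 1 rose and 0 fell in HCC38 (beside 15.5% and 18.4%), so the HCC38 share was near that of all genes. PERP, a membrane protein of desmosomes and apoptosis, rose in each line, with log2FC of 0.73 ± 0.10 (MDA-MB-468), 0.37 ± 0.10 (SUM149PT) and 0.30 ± 0.10 (HCC38) (interaction adjusted p = 0.054). Its HCC38 call did not hold in 3 of the 12 leave-one-out fits. AEN rose in MDA-MB-468 (log2FC 0.55 ± 0.10) and SUM149PT (0.39 ± 0.10), with 0.22 ± 0.10 in HCC38 (adjusted p = 0.11), and a difference between lines was not detected (adjusted p = 0.18). In each line the log2FC of AEN was below those of BTG2 and RAP2B. Those genes were shown because they rose in every line, so this order cannot bear on the full p53 site of AEN. Differences between genes were not tested.

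PIDD1, the scaffold of the caspase-2 complex, was the apoptosis gene that fell, with -0.53 ± 0.12 (MDA-MB-468) and -0.72 ± 0.13 (SUM149PT) as log2FC, beside -0.02 ± 0.13 in HCC38 (interaction adjusted p = 0.025). APAF1, the core of the apoptosome, passed the test in SUM149PT (log2FC 0.64 ± 0.17), beside 0.12 and 0.00 in MDA-MB-468 and HCC38, and a difference between lines was not detected (adjusted p = 0.13). TP53INP1, a protein of autophagy and cell death, rose in SUM149PT (log2FC 0.81 ± 0.28), where its level was lowest, at 0.985 and 1.66 CPM in knock-down and 0.803 and 0.651 CPM in LNA NS libraries. TP53INP1 is overlapped on the opposite strand by NDUFAF6, which holds 11698 counts against its 2339. TRIAP1, an inhibitor of apoptosis in mitochondria, and TP53I3, a quinone oxidoreductase, rose in MDA-MB-468 (log2FC 0.53 ± 0.17 and 0.29 ± 0.11), and both calls were lost in some fits without 1 library. SPATA18, which takes part in mitochondrial quality control, had 0 counts in all MDA-MB-468 libraries and at most 13 counts in any other, and was called in no line.

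The repair genes had no common direction. XPC, the damage sensor of nucleotide excision repair, rose in all lines by nearly the same amount, with log2FC of 0.55 ± 0.13 (MDA-MB-468), 0.44 ± 0.12 (SUM149PT) and 0.49 ± 0.13 (HCC38) (interaction adjusted p = 0.89). Its SUM149PT call was lost in 2 fits without 1 library and its HCC38 call in 1. DDB2, the subunit that finds ultraviolet damage for XPC, fell in SUM149PT, where it was at 38.6 and 40.3 CPM in knock-down and 63.1 and 70.8 CPM in LNA NS libraries (log2FC -0.76 ± 0.10, adjusted p = 4.3e-05). DDB2 had a log2FC of -0.21 ± 0.10 in MDA-MB-468 and -0.10 ± 0.10 in HCC38, and the lines differed (interaction adjusted p = 0.0073). RRM2B, the p53-inducible subunit of ribonucleotide reductase, rose in MDA-MB-468 (log2FC 0.67 ± 0.12) and SUM149PT (0.74 ± 0.12), with 0.23 ± 0.12 in HCC38. POLH, the polymerase that reads past ultraviolet lesions, fell in HCC38 (log2FC -0.60 ± 0.16, adjusted p = 0.013), a call lost in 2 fits without 1 library. GTPBP2, on the opposite strand of POLH, holds 51247 counts against 11503 for POLH.

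Of the metabolic genes, TIGAR, which lowers glycolytic flux, rose in MDA-MB-468 (log2FC 0.66 ± 0.18) and SUM149PT (0.66 ± 0.17), beside -0.10 ± 0.17 in HCC38 (interaction adjusted p = 0.042). SESN1, a sestrin that restrains mTORC1, rose in MDA-MB-468 (log2FC 0.74 ± 0.16) and SUM149PT (0.45 ± 0.17), beside 0.18 ± 0.17 in HCC38. Its SUM149PT call was lost without any 1 library of that line. A difference between lines was not detected (interaction adjusted p = 0.19). FDXR, the mitochondrial ferredoxin reductase, fell in MDA-MB-468 (log2FC -0.31 ± 0.12, adjusted p = 0.05), a call that did not hold without some library.

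The growth and signaling genes held 3 of the 5 rises of more than 2-fold in MDA-MB-468. RAP2B was at 191.9 and 204.8 CPM in knock-down and 79.1 and 83.8 CPM in LNA NS libraries of MDA-MB-468, a log2FC of 1.28 ± 0.09 or 2.44-fold (adjusted p = 1.3e-08). It was at 149.2 and 161.6 CPM in knock-down and 80.0 and 76.8 CPM in LNA NS libraries of SUM149PT, a log2FC of 0.99 ± 0.09 (adjusted p = 6.6e-07). In HCC38 it was at 72.5 and 73.2 CPM in knock-down and 46.5 and 47.4 CPM in LNA NS libraries, a log2FC of 0.63 ± 0.09 (adjusted p = 5.2e-05). No groups overlapped, and the rise differed between lines, largest in MDA-MB-468 and smallest in HCC38 (interaction adjusted p = 0.004).

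PTP4A1, a phosphatase known as PRL-1, was at 257.7 and 315.0 CPM in knock-down and 131.8 and 126.9 CPM in LNA NS libraries of MDA-MB-468 (log2FC 1.15 ± 0.10, adjusted p = 2.8e-07). It was at 334.4 and 291.9 CPM in knock-down and 239.8 and 244.6 CPM in LNA NS libraries of SUM149PT (log2FC 0.37 ± 0.10, adjusted p = 0.011). In HCC38 it was at 353.1 and 332.3 CPM in knock-down and 191.2 and 175.6 CPM in LNA NS libraries (log2FC 0.90 ± 0.10, adjusted p = 1e-05). All knock-down libraries lay above their LNA NS libraries, by least in SUM149PT, where the call was lost without knock-down replicate 1 (log2FC 0.26). The interaction had an adjusted p of 0.0036.

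SERPINB5, the serpin maspin, a product of mammary epithelium, was at 31.8 and 36.1 CPM in knock-down and 16.5 and 13.9 CPM in LNA NS libraries of MDA-MB-468 (log2FC 1.16 ± 0.11, adjusted p = 5e-07). It was at 571.2 and 488.8 CPM in knock-down and 390.8 and 395.8 CPM in LNA NS libraries of SUM149PT (log2FC 0.43 ± 0.10, adjusted p = 0.0043). The HCC38 values were 140.9 and 131.8 CPM in knock-down and 142.5 and 134.7 CPM in LNA NS libraries (log2FC -0.02 ± 0.10, adjusted p = 0.9). The rise was thus seen in the lines with no overlap of groups, MDA-MB-468 and SUM149PT, while the HCC38 groups overlapped and the sign of their small difference turned with the scaling. This gene had the smallest interaction adjusted p of the list (0.00028).

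GDF15, a secreted stress cytokine, was the only gene of the list called in opposite directions, which 3.72% of all genes tested were. It was at 1.43 and 1.76 CPM in knock-down and 2.14 and 2.66 CPM in LNA NS libraries of MDA-MB-468 (log2FC -0.59 ± 0.23, adjusted p = 0.05). It was at 2.88 and 2.58 CPM in knock-down and 2.97 and 3.00 CPM in LNA NS libraries of SUM149PT (log2FC -0.12 ± 0.22, adjusted p = 0.74). The HCC38 values were 2.62 and 3.07 CPM in knock-down and 1.75 and 2.03 CPM in LNA NS libraries (log2FC 0.58 ± 0.22, adjusted p = 0.063). The groups did not overlap in any line, but the levels are low, the HCC38 call was lost without any 1 of its 4 libraries (log2FC 0.47 to 0.69), and that in MDA-MB-468 was lost without knock-down replicate 1 (-0.45) or LNA NS replicate 2 (-0.43). PHLDA3, a repressor of AKT, rose in HCC38 only, where its level was lowest, at 12.4 and 15.1 CPM in knock-down and 10.2 and 9.38 CPM in LNA NS libraries (log2FC 0.49 ± 0.12, adjusted p = 0.0054, interaction adjusted p = 0.016).

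Over the list, the response differed between lines for 23 of the 35 genes (65.7%, beside 32.4% of all genes tested and 46.6% of coding genes of at least 1 CPM). Without knock-down replicate 2 of HCC38 the count was 14. More than 2-fold changes were confined to few genes: in MDA-MB-468, BTG2, GADD45A, RAP2B, SERPINB5 and PTP4A1 rose by that much and FAS fell, in HCC38 only BTG2 rose, and in SUM149PT none passed. On average only BTG2 passed, beside 7.09% of all genes tested that rose and 5.43% that fell by more than 2-fold. By line, 9.21% of all genes rose and 11.0% fell by more than 2-fold in MDA-MB-468, 6.31% and 4.31% did in SUM149PT, and 4.96% and 4.41% did in HCC38.

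Genes also differed in length. The 24 genes of the list that rose on average had a median genomic span of 30802 bp and the 7 that fell one of 10878 bp. Over all genes the order was reversed, 19266 bp for those that rose and 43572 bp for those that fell. With the trend of gene span removed from the fold changes, no called direction turned in the 35 genes. In MDA-MB-468 25 of the 26 calls were kept and 3 gained, in SUM149PT 21 of 21 kept and 2 gained, in HCC38 10 of 11 kept and 6 gained, and on average 28 of 31 kept and 1 gained. The calls lost were TP53I3 in MDA-MB-468, GADD45A in HCC38, and PLK2, TP53I3 and TRIAP1 on average.

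The second comparison asked how the genes stood at baseline, in the LNA NS libraries of each line. Levels are compared between genes as CPM per kb of exons. SFN was highest in every line, at 510.5 CPM per kb in SUM149PT, 471.3 in MDA-MB-468 and 127.1 in HCC38. It was followed by PLK2, GADD45A and PERP in MDA-MB-468 (100.2, 74.1 and 71.1 CPM per kb), by SERPINB5, CDKN1A and PTP4A1 in SUM149PT (105.1, 57.1 and 41.0), and by PERP, SERPINB5 and PTP4A1 in HCC38 (51.9, 37.04 and 31.0). At the other end, EDA2R and SPATA18 were at or near 0 in all 3 lines, at most 0.0450 CPM per kb.

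**Figure D4:**
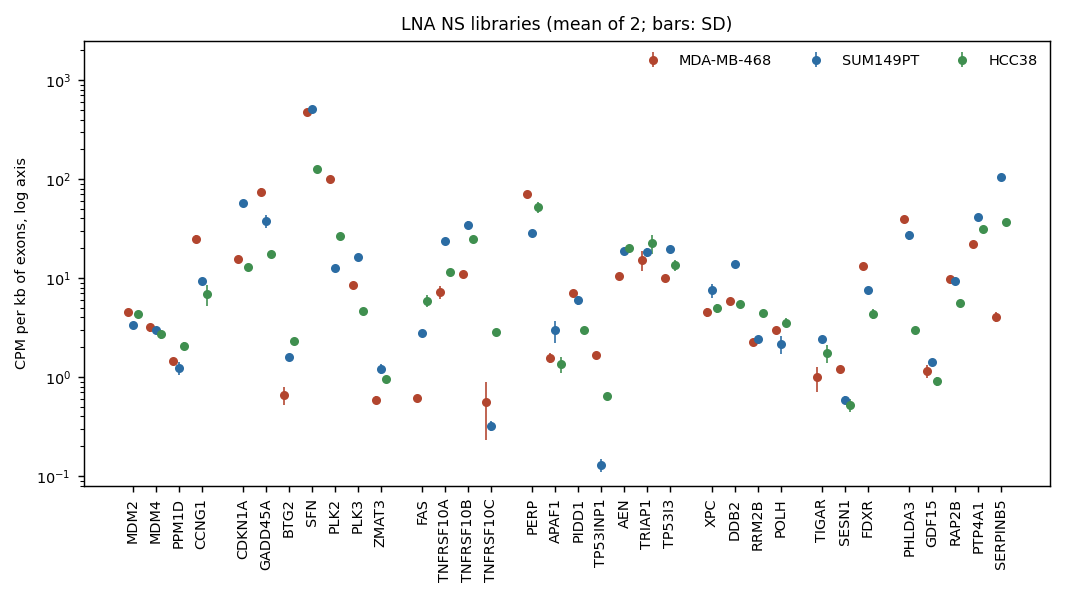
Baseline level of 34 genes of the p53 list in LNA NS libraries, as CPM per kb of exons on a log axis, by role; points are means of 2 libraries and bars the SD. SFN is highest in each line, and SERPINB5, FAS, PHLDA3 and TP53INP1 are spread widest between lines.

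Between lines, 14 of the 35 genes tested were higher and 15 lower in MDA-MB-468 than in HCC38 (beside 33.7% and 37.7% of all genes tested). Of the 35, 20 were higher and 10 lower in SUM149PT than in HCC38 (beside 31.6% and 38.0%), and 11 were higher and 16 lower in MDA-MB-468 than in SUM149PT (beside 35.3% and 33.2%). Differences of more than 2-fold numbered 9 higher and 6 lower in MDA-MB-468 than in HCC38 (beside 19.8% and 23.9% of all genes tested), 9 and 4 in SUM149PT than in HCC38 (beside 16.8% and 23.3%), and 5 and 10 in MDA-MB-468 than in SUM149PT (beside 21.3% and 19.3%). All 35 tested genes of the list differed in at least 1 pair of lines, as did 89.1% of all genes tested. Lines were not shared between groups, so a line and any batch of its libraries cannot be told apart.

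CDKN1A was highest in SUM149PT, 4.46-fold above HCC38 and with MDA-MB-468 at 0.272 of the SUM149PT level (adjusted p = 2.8e-11 and 9.9e-11). The p21 gene was at 165.0 and 177.0 CPM in SUM149PT, where knock-down moved it by -0.06. It was at 45.8 and 47.2 CPM in MDA-MB-468, where it fell. HCC38 had the lowest level, 37.8 and 38.9 CPM, and no call (log2FC 0.11). A link between baseline level and change was not tested. SUM149PT was above both other lines in 12 genes, among them TNFRSF10A, TNFRSF10B, APAF1, XPC, DDB2 and SERPINB5. How many of all genes tested stood above or below both other lines was not counted. This count and those for the other lines below therefore cannot be read as a trait of the list. SERPINB5 had the widest span of the list apart from SPATA18, with MDA-MB-468 at 0.0387 of SUM149PT and 0.11 of HCC38.

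MDA-MB-468 was above both other lines in 9 genes and below both in 11, again with no share over all genes beside these counts. Those above were CCNG1, GADD45A, PLK2, PERP, PIDD1, TP53INP1, SESN1, FDXR and PHLDA3. GADD45A stood 4.22-fold above HCC38 and PHLDA3 13.1-fold. Among those below, FAS stood at 0.105 of HCC38 and BTG2 at 0.291. SPATA18 is also among the 11, on 0 counts in every MDA-MB-468 library, and its fitted fold is not given. TP53INP1 was the gene with the largest excess in MDA-MB-468 over SUM149PT, 12.9-fold.

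HCC38 was above both other lines in 5 genes, PPM1D, BTG2, FAS, TNFRSF10C and RRM2B, and below both in 9, CCNG1, CDKN1A, GADD45A, SFN, PLK3, PIDD1, FDXR, PHLDA3 and RAP2B. These counts too stand without a share over all genes. BTG2 and FAS had the same order of lines at baseline, HCC38 above SUM149PT above MDA-MB-468, and each step passed the test. For FAS the steps were a log2 difference of -1.09 ± 0.15 for SUM149PT against HCC38 and -2.17 ± 0.17 for MDA-MB-468 against SUM149PT. After knock-down BTG2 rose in all 3 lines, whereas FAS fell in MDA-MB-468 and HCC38.

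Other genes of the pathway were taken from 3 lists. Of 51 further p53 targets tested, 22 rose and 17 fell on average over the lines (beside 28.4% and 26.5% of all genes tested), with a median log2FC of 0.10, beside 0.04 over all genes tested. TNFRSF10D, the TRAIL decoy receptor with a truncated death domain, was at 42.1 and 48.5 CPM in knock-down and 9.46 and 10.6 CPM in LNA NS libraries of MDA-MB-468 (log2FC 2.17, adjusted p = 1.3e-07). It rose in HCC38 (log2FC 1.33, adjusted p = 3.2e-05) and lay under 0.4 CPM in every SUM149PT library. SERTAD1, a coregulator of E2F and cyclin D-CDK4, rose in each line, by a log2FC of 0.97 to 1.32. TM7SF3, a membrane protein with 7 membrane-spanning segments, fell to 8.77 and 9.53 CPM in knock-down against 48.8 and 47.0 CPM in LNA NS libraries of MDA-MB-468, and fell in each line (log2FC -2.39 to -1.58). SYTL1, a synaptotagmin-like protein of vesicle traffic, also fell in each line (log2FC -2.37 to -0.75).

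Of 19 regulators of p53, 7 rose and 8 fell on average, beside 28.4% and 26.5% of all genes tested. SIRT1, a deacetylase of p53, rose in each line (log2FC 1.34, 1.21 and 0.41 for MDA-MB-468, SUM149PT and HCC38). EP300, the acetyltransferase that is a coactivator of p53, also rose in each line (log2FC 0.64 to 0.84). HUWE1 and COP1, ubiquitin ligases with p53 among their targets, fell in each line, with an average log2FC of -1.27 for HUWE1 and -0.78 for COP1.

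The third list held 15 cell cycle genes that p53 lowers through p21 and the DREAM repressor complex. Of these, 10 rose and 2 fell in MDA-MB-468, 9 rose and 1 fell in SUM149PT, and 1 rose and 9 fell in HCC38. The shares of all genes tested that rose and fell were 24.9% and 25.7% for MDA-MB-468, 20.0% and 18.0% for SUM149PT, and 15.5% and 18.4% for HCC38. The median log2FC of the 15 genes was 0.50, 0.26 and -0.33 for MDA-MB-468, SUM149PT and HCC38, while CDKN1A itself had -0.66, -0.06 and 0.11. CDKN1A was called in MDA-MB-468 only, and a link between its change and these genes was not tested. NEK2, a centrosome kinase, rose in each line (log2FC 1.29, 0.59 and 0.31 in MDA-MB-468, SUM149PT and HCC38) and CENPF, a kinetochore protein, in MDA-MB-468 and SUM149PT (0.83 and 0.54). MYBL2, a transcription factor of the cell cycle, fell in each line (log2FC -0.93 to -0.53), and CDC25C, the phosphatase that triggers mitosis, fell in MDA-MB-468 (log2FC -1.12), with 0.14 and 0.19 in SUM149PT and HCC38.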

How the data were processed

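RNA-seq of 12 libraries was deposited as 1 table of raw counts per gene and library, made by the authors with HTSeq 0.6.0 on GRCh37. The submitters' processing notes name TopHat2 2.0.13 as a tool, whereas the methods of the study name another aligner, and the sources used here give neither the annotation release nor the strand setting. The 5 HTSeq summary lines held 40.8% to 53.7% of each file's counts and were left out. Counts were tested with edgeR 4.0.16 in R 4.3.3 (glmQLFit and glmQLFTest): filterByExpr on the 6 groups, TMM, 1 mean per group over all 12 libraries, 21325 genes and 6 residual degrees of freedom, with Benjamini-Hochberg adjustment. Contrasts were knock-down minus LNA NS in each line, their mean, their difference (an F test) and LNA NS libraries between lines. DESeq2 1.42.0, RLE, library totals, 2 other filters, each line alone, a replicate block, removal of the gene span trend, an adjusted p of 0.05, a 2-fold minimum and leaving out each library were alternatives. The fit was tested on simulated data. Gene spans and exon lengths came from GENCODE on GRCh37, promoters from RefSeq on GRCh38.p14. Values in every library are given for genes called with more than 2-fold change in a line or in opposite directions, and for CDKN1A, GADD45A and MDM2. Of each other pathway list, the 2 largest average rises and falls are named. The listed genes and the other lists were chosen with earlier results of these data known.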

Additional observations from a re-analysis of the deposited data

Results flagged for a closer look

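The response to knock-down differed between the cell lines for 23 of the 35 genes tested (65.7%), by the interaction test of edgeR's quasi-likelihood fit. Beside this stand 32.4% of all genes tested and 46.6% of coding genes of at least 1 CPM. Feedback genes had an adjusted p of 0.051 for MDM2, 0.0049 for MDM4 and 0.031 for CCNG1. Arrest genes had an adjusted p of 0.0023 for CDKN1A, 0.00085 for GADD45A, 0.089 for BTG2, 0.0057 for SFN, 0.0062 for PLK2 and 0.08 for ZMAT3. Among death receptors and apoptosis genes it was 0.0025 for FAS, 0.033 for TNFRSF10B, 0.054 for PERP, 0.025 for PIDD1 and 0.054 for TP53INP1. Repair and metabolic genes had an adjusted p of 0.0073 for DDB2, 0.058 for RRM2B, 0.05 for POLH and 0.042 for TIGAR. Growth and signaling genes had one of 0.016 for PHLDA3, 0.036 for GDF15, 0.004 for RAP2B, 0.0036 for PTP4A1 and 0.00028 for SERPINB5. Groups of 2 libraries are too small for a test of a single outlying library.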

How the results depend on the processing

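The directions of the 9 genes given by library held under every alternative except for SERPINB5 in HCC38, whose log2FC of -0.02 was not called and became 0.0045 with RLE, 0.037 with library totals, 0.0046 with DESeq2, 0.031 with at least 10 counts in every library and 0.0029 with the span trend removed, and ran between -0.093 and 0.024 without 1 library. At more than 2-fold, 5 genes rose and 1 fell in MDA-MB-468, 0 and 0 in SUM149PT, 1 and 0 in HCC38 and 1 and 0 on average, and at baseline 9 were higher and 6 lower in MDA-MB-468 than in HCC38, 9 and 4 in SUM149PT than in HCC38, and 5 and 10 in MDA-MB-468 than in SUM149PT. With at least 10 counts in every library, 14 genes rose in HCC38, and with the span trend removed 4 fell there. The cause of these 2 shifts was not tested. Without 1 library, rises numbered 15 to 19 in MDA-MB-468, 13 to 18 in SUM149PT, 6 to 9 in HCC38 and 20 to 22 on average, falls 5 to 7, 3 to 4, 1 to 3 and 6 to 7, and genes whose response differed between lines 14 to 22. The fall count in HCC38 was 1 without LNA NS replicate 1, without LNA NS replicate 2 or without knock-down replicate 2. At baseline these fits gave 13 to 14 higher and 13 to 15 lower in MDA-MB-468 than in HCC38, 18 to 20 and 10 to 11 in SUM149PT than in HCC38, and 10 to 12 and 15 to 17 in MDA-MB-468 than in SUM149PT.

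Of the named genes, GADD45A lost its HCC38 call with the span trend removed (log2FC 0.26) and gained one in SUM149PT (0.28), MDM2 gained one in HCC38 with library totals (0.29), with at least 10 counts in every library (0.28) and with the span trend removed (0.30), and GDF15 lost its MDA-MB-468 call with DESeq2 (-0.58) and with no filter (-0.60) and its HCC38 call with no filter (0.57). Over all genes tested, at least 10 counts in every library left 5181 lower in MDA-MB-468 than in HCC38, against 8045, and 5300 lower in SUM149PT than in HCC38, against 8107, as fewer genes were tested. Rises in SUM149PT numbered 2829 without its LNA NS replicate 2, against 4260, and in HCC38 2024 without its LNA NS replicate 1, against 3316.

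Same-numbered libraries showed little shared deviation: deviations from group means correlated at -0.0039, 0.0818 and -0.0993 between them in MDA-MB-468, SUM149PT and HCC38. Whether they were prepared together is not stated, and these correlations cannot decide it. With the replicate block, 19 rose and 7 fell in MDA-MB-468, 17 and 4 in SUM149PT, 9 and 2 in HCC38 and 24 and 7 on average. With 2 libraries a group, the change of MDM2 in HCC38 lay near the threshold and passed it under some alternatives only.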
